A study of Mus musculus with 4 samples.

Results

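The genes described here encode nuclear subunits of the mitochondrial respiratory chain and of ATP synthase, with a few factors that help to assemble them. They were chosen by symbol alone, as every probe set whose only annotated symbol begins with Nduf, Sdh followed by a, b, c or d, Uqcr, Cox4 to Cox8 or Atp5. This gave 185 of 45101 probe sets and 94 of the 18193 genes with 1 symbol. The brightest probe set stood for each gene. Of the 94 genes, 82 encode subunits (34 of complex I, 4 of complex II, 8 of complex III, 19 of complex IV and 17 of complex V) and 12 are assembly factors of complexes I and II (Ndufaf and Sdhaf genes). A further 10 probe sets list a gene of this kind together with another symbol and were left out.

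The samples were mouse embryonic stem cells, the pluripotent cells of the early embryo grown in culture, measured on Affymetrix expression arrays. There were 2 arrays of cells lacking Suz12 (Suz12KO) and 2 arrays of wild-type cells (WT). Suz12 belongs to the core of Polycomb repressive complex 2, which methylates histone H3 at silent developmental genes. Each genotype was a mixture of equal amounts of RNA from 3 clones, per the labels, which name no strain, passage or kind of deletion. Nor is it stated there that replicate arrays held separate RNA, so p-values measure the spread between arrays, which may be technical.

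Complex I (NADH dehydrogenase) and complex II (succinate dehydrogenase) pass electrons to ubiquinone, complex III (cytochrome bc1) passes them to cytochrome c, and complex IV (cytochrome c oxidase) passes them to oxygen. Complexes I, III and IV pump protons across the inner membrane, and complex V (ATP synthase) uses the return flow to make ATP. Most subunits are encoded in the nucleus and only a few, not covered here, in mitochondrial DNA. Pluripotent stem cells are known for high glycolysis beside a working respiratory chain. The comparison asks how the messenger RNA levels of these subunits differ in the absence of Suz12.

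Values are probe set signals, an intensity on a linear scale, and as deposited they have the same trimmed mean, 500.003, in every array. Fold changes are differences of mean log2(signal + 16), Suz12KO minus WT, from limma fitted over all 12735 genes tested, with Benjamini-Hochberg adjustment over all of them and a threshold of 0.05. The median signal of all probe sets was 202 and 191 in the Suz12KO arrays, against 175 and 171 in the WT arrays. Centring each array on its median therefore lowers every log2 fold change by 0.17, and calls of the respiratory chain genes are given below with and without that step. On 18 probe sets for control RNA added at hybridisation the shift between genotypes was 0.04. Suz12 itself read 217 and 369 in the Suz12KO arrays and 1097 and 1094 in the WT arrays (log2 fold change -1.89, SE 0.27, limma adjusted p = 0.00213), a call kept after centring (-2.06) and lost with the mean of its probe sets (-1.67, adjusted p = 0.0602). The stem cell factor Pou5f1 read 11657 and 11832 in Suz12KO and 7418 and 7097 in WT. Of 8 stem cell markers 8 rose (6 after centring), with a summed signal of 115187 and 118307 in Suz12KO and 64999 and 64715 in WT. Among 13 fibroblast markers 9 were tested and 6 of them fell, as they did after centring. Their summed signal was 16479 and 16399 in Suz12KO, against 66981 and 68661 in WT. None of the 13 was at 0, and 4 (Dcn, Lum, Pdgfrb and Postn) lay within background in every array, background being the range up to 195, the highest signal of 27 probe sets for bacterial RNA taken here as unused. Of 7 endoderm markers 1 rose (summed signal 3684 and 3113 in Suz12KO, 2110 and 2235 in WT), and of 6 muscle markers 1 fell (1487 and 1560 in Suz12KO, 4582 and 4615 in WT), also with none at 0 and the same counts after centring. RNA integrity, read as the 3' over 5' signal of Gapdh, came to 0.889 and 0.871 in Suz12KO, against 0.807 and 0.756 in WT. The same ratio of Actb was 1.14 and 1.14 in Suz12KO and 1.15 and 1.16 in WT, and that of Tfrc overlapped, with 2.43 and 2.84 in Suz12KO and 2.55 and 2.47 in WT. The part of these differences in the results below was not tested. In such bulk samples fewer cells of a type and less RNA per cell cannot be told apart.

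Of the 94 genes, 90 were bright enough to be tested, and 15 of these rose in Suz12KO and 0 fell by limma (3 were lower and 28 higher at an unadjusted p under 0.05). Over all genes tested 4.48% rose and 5.5% fell. The changes were small: the 15 rises ran from 0.21 for Uqcrb to 0.55 for Atp5g1, and 92.2% of the 90 genes had a log2 fold change under 0.5 in size, against 71.9% of all genes tested. The median log2 fold change was 0.10 for the 90 genes (0.11 for all 94) and 0.04 for all genes tested. After centring the medians were -0.06 and -0.13, 2 of the 90 rose (2.31% of all genes tested) and 4 fell (9.76% of all genes tested). Centring shifts every gene equally, so the gap of 0.07 between the medians is the same by construction. When arrays were scaled on the added control RNA instead, 11 rose and 0 fell (3.79% and 6.27% of all genes tested). The 15 calls also rest on the variance model and the probe set chosen. In limma with no mean-variance trend 0 of all 12735 genes passed (2332 at an unadjusted p under 0.05). With probe sets averaged per gene 3 of the 15 were kept, 11 lost and 1, Atp5c1, turned sign. The second Atp5c1 probe set in that average lies near background (226 and 57.9 in Suz12KO, 272 and 214 in WT).

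These are bright probe sets, and bright genes pass the test more often. Of the 90 genes, 68 had a mean signal of at least 2000, and all 15 rises were among them. That is 22.1% of the 68, against 14.1% of the 1994 genes tested at that brightness, of which 15% fell. The median log2 fold change was 0.135 for the 68 and 0.002 for the 1994, and -0.032 and -0.165 after centring. After centring, 5.32% of those 1994 genes rose and 25.3% fell, against 2 and 3 of the 68. The array medians used for centring (171 to 202) lie near the background of 195, so dim probe sets set that shift. Both Suz12KO arrays lay above both WT arrays for 47 of the 90 genes and below them for 15, while 28 overlapped. The shares over all genes tested were 29% and 23.9%. Among the 68 bright genes 41 lay above and 10 below, where the 1994 genes had 35.7% and 34.7%. Genes that passed the test were picked on these same arrays, so a lack of overlap, where given below, adds no support to their calls.

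**Figure D1:**
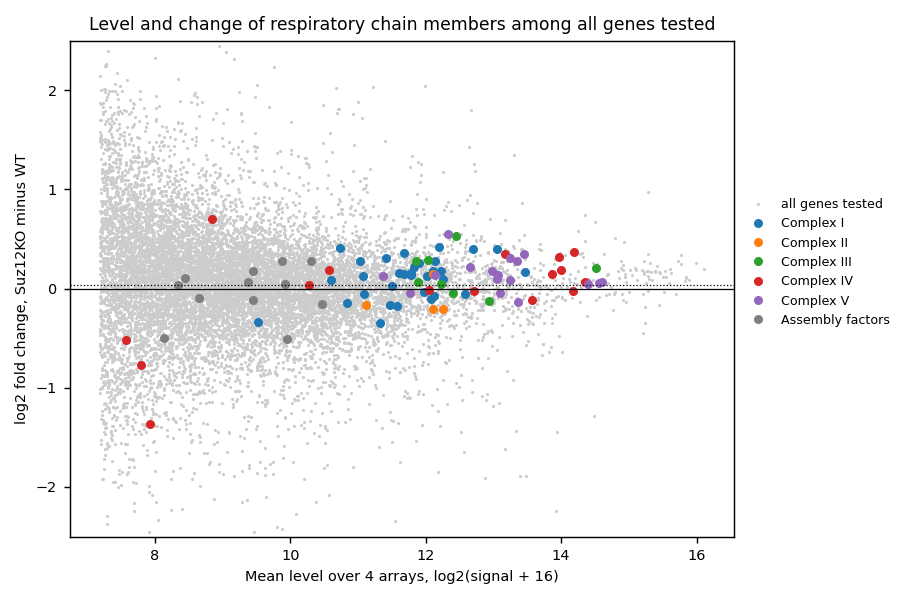
Log2 fold change (vertical, Suz12KO minus WT) against mean level (horizontal, log2 of signal + 16) for all 12735 genes tested in grey and the 90 respiratory chain genes in colour by complex. The dotted line is the median of all genes (0.04), and 26 other genes lie beyond the plotted limit of 2.5. The coloured points sit at the bright end and mostly within 0.5 of 0.

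Complex V gave the largest rise among the genes that passed the test. Of its 17 genes 4 rose (23.5%) and 0 fell, with a median log2 fold change of 0.12. The shares over all genes tested were 4.48% and 5.5%, and over the 1994 bright ones 14.1% and 15%. Above 0 were 14 values (82.4%, against 53.5% of all genes tested and 50.3% of the bright ones). After centring 1 rose and 0 fell, beside 2.31% and 9.76% of all genes tested and 5.32% and 25.3% of the bright ones. The centred median was -0.04, with 6 values above 0 and 11 below. The rotating ring of ATP synthase is built of c subunits, and Atp5g1, Atp5g2 and Atp5g3 encode precursors that yield the same mature c subunit. Atp5g1 read 6501 and 5951 in Suz12KO, against 4438 and 4060 in WT. Atp5g2 read 11030 and 10536 in Suz12KO and 9268 and 8148 in WT. Atp5g3 read 24986 and 25834 in Suz12KO and 24681 and 23744 in WT. In each of the 3 the Suz12KO arrays lay above the WT arrays, as in 35.7% of the 1994 bright genes. Atp5g1 rose by 0.55 (SE 0.08, limma adjusted p = 0.00257) and Atp5g2 by 0.31 (SE 0.07, adjusted p = 0.0279), while Atp5g3 had a log2 fold change of 0.07 (SE 0.05, adjusted p = 0.446). After centring Atp5g1 was still past the test (0.38, limma adjusted p = 0.0164), but not Atp5g2 (0.14, adjusted p = 0.319) or Atp5g3 (-0.10, adjusted p = 0.460). Atp5g1 kept its call whichever array was left out, and after centring it lost it without WT replicate 2 (0.33, limma adjusted p = 0.160). Atp5g2 no longer passed with Suz12KO replicate 1 left out (adjusted p = 0.0942) or with WT replicate 2 left out (adjusted p = 0.186). The difference between the 3 genes was not tested.

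The other rises of complex V were Atp5k, the e subunit in the membrane part, and Atp5c1, the gamma subunit that forms the central stalk. Atp5k read 12659 and 12612 in Suz12KO, against 10778 and 9123 in WT, a rise of 0.35 (SE 0.08, limma adjusted p = 0.0223). Atp5c1 read 11527 and 11408 in Suz12KO and 9553 and 9400 in WT, a rise of 0.27 (SE 0.06, adjusted p = 0.0147). Neither passed after centring (0.18 and 0.11). Atp5k lost its call without either Suz12KO array or WT replicate 2 (adjusted p 0.0539, 0.0501 and 0.137, the last with a log2 fold change of 0.23), and Atp5c1 without Suz12KO replicate 1 or either WT array (adjusted p 0.0513, 0.0621 and 0.0934). The alpha and beta subunits of the catalytic head did not pass the test. Atp5b, the catalytic beta subunit, read 23474 and 25757 in Suz12KO and 23596 and 23573 in WT, and its alpha partner Atp5a1 read 23377 and 20689 in Suz12KO and 20006 and 22576 in WT. In these 2 genes the genotypes overlapped, with log2 fold changes of 0.06 and 0.05 (limma adjusted p 0.578 and 0.752), and -0.11 and -0.12 after centring. The remaining complex V genes, among them the peripheral stalk subunits Atp5o, Atp5pb, Atp5h and Atp5j, had log2 fold changes of -0.13 to 0.22 and did not pass.

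Promoters of the c subunit genes are shown because these genes share a product while only Atp5g1 and Atp5g2 passed the test, with that of Atp5k, which holds more than 1 kind of motif, and that of Uqcr10, described next, which with Atp5g1 passed the test after centring. Motifs were searched because nuclear respiratory chain promoters are known to carry sites for NRF1, for the ETS factor GABP and for YY1. Each window runs from 250 bases before to 50 after the annotated start (RefSeq, GRCm38.p6), 5′ to 3′ on the gene's strand. Capitals mark matches on either strand to the NRF1 motif (GCGCA and GCGC with any base between them) or to CCGGAAG (GABP), and these do not overlap in the windows printed. AAGATGGCG (YY1) was searched too and has no match in them.
Atp5g1 (chr11:96075582-96075881, minus strand): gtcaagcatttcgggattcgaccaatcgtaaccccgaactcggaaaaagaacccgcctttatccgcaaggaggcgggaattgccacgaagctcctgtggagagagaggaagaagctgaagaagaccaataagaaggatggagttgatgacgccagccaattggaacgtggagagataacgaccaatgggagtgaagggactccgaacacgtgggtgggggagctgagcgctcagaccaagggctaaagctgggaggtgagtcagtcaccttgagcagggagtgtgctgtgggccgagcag
Atp5g2 (chr15:102670998-102671297, minus strand): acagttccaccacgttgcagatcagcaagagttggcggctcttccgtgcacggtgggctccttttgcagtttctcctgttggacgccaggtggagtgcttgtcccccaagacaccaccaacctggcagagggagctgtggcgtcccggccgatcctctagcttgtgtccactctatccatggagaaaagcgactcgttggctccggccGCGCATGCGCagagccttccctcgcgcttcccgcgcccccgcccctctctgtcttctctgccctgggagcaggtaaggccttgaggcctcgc
Atp5g3 (chr2:73911277-73911576, minus strand): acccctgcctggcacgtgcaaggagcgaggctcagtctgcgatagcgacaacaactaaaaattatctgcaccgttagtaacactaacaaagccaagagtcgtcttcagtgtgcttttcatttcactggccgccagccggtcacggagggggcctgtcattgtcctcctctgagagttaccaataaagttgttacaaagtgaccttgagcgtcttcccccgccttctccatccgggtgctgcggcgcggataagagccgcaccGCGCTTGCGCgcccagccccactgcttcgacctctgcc
Atp5k (chr5:108434350-108434649, minus strand): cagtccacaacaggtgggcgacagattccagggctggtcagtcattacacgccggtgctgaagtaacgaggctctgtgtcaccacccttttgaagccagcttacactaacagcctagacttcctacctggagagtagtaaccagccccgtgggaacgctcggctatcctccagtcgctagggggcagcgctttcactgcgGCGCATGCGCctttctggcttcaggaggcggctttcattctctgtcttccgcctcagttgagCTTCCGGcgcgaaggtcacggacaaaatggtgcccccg
Uqcr10 (chr11:4704295-4704594, minus strand): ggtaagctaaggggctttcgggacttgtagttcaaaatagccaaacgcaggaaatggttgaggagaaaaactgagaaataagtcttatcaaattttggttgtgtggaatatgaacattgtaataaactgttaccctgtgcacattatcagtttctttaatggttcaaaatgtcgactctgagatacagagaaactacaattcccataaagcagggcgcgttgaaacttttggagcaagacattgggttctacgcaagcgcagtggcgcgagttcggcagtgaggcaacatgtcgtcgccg

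The Atp5g2 and Atp5k windows hold the same NRF1 letters, GCGCATGCGC, and that of Atp5g3 holds GCGCTTGCGC. The Atp5k window also holds a GABP match, and the Atp5g1 and Uqcr10 windows hold none of the 3 motifs. A promoter was listed for 78 of the 94 genes. The NRF1 letters were found in 19 of the 78 (24.4%), against 8.63% of 14368 array genes with a listed promoter and 4.6% of all 32851 windows. GABP letters were in 22 of the 78 (28.2%), against 15% of the array genes and 8.86% of all windows, and YY1 letters in 7 (8.97%), against 2.54% and 1.4%. Among genes of at least 2000 in mean signal the 3 shares were 16.8%, 25.7% and 5.24%. Of the 10 risen genes with a promoter 3 held the NRF1 letters and 2 the GABP letters, against 15 and 20 of the 65 other tested genes. The median log2 fold change was 0.09 for the 18 tested genes with NRF1 letters and 0.13 for the 57 without. For GABP letters the medians were 0.10 in 22 genes with and 0.12 in 53 without. YY1 letters were in 0 of the 10 risen genes and 7 of the 65 others, with medians of 0.18 in the 7 genes with and 0.09 in 68 without. A match describes letters only, and no binding was measured.

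Complex III showed 3 rises among 8 genes (37.5%) and 0 falls, with a median of 0.14. The share that rose was 4.48% over all genes tested and 14.1% over the 1994 bright ones. After centring 1 rose and 0 fell, beside 2.31% and 9.76% of all genes tested and 5.32% and 25.3% of the bright ones. The centred median was -0.03, with 4 values above 0 and 4 below. Uqcr10 encodes a small accessory subunit. It read 7166 and 6270 in Suz12KO, against 4802 and 4474 in WT, a rise of 0.53 (SE 0.08, limma adjusted p = 0.00390) that passed after centring too (0.36, adjusted p = 0.0211). This gene has 3 probe sets, all above background, and all of them were higher in both Suz12KO arrays, with log2 fold changes of 0.53, 0.93 and 0.78. In a limma fit over all probe sets the adjusted p of these was 0.00683, 0.0127 and 0.166. The rise passed whichever array was left out, but after centring not without Suz12KO replicate 1 or either WT array (limma adjusted p 0.0689, 0.0608 and 0.165).

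Uqcrb, a ubiquinone-binding subunit, read 25058 and 25086 in Suz12KO and 22075 and 21242 in WT (0.21, SE 0.05, limma adjusted p = 0.0251). Uqcrq, another small subunit, read 4490 and 4714 in Suz12KO and 3871 and 3652 in WT (0.29, SE 0.08, adjusted p = 0.0485). In both genes the arrays of the genotypes did not overlap. Neither rise passed after centring (0.04 and 0.12), or when any 1 of the 4 arrays was left out, with limma adjusted p of 0.0623 to 0.181 for Uqcrb and 0.0783 to 0.238 for Uqcrq. A dimmer Uqcrb probe set had a value of the other sign, with 3211 and 3956 in Suz12KO against 3661 and 4117 in WT (-0.12). The core subunits Uqcrc1 and Uqcrc2 and the Rieske iron-sulfur protein Uqcrfs1 had log2 fold changes of -0.12, 0.07 and 0.05 (limma adjusted p 0.395, 0.649 and 0.725).

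In complex IV, 3 of the 16 genes tested rose (18.8%) and 0 fell, and the 3 are Cox6c, Cox8a and Cox4i1. The share that rose was 4.48% over all genes tested and 14.1% over the 1994 bright ones. The median of the complex was 0.05, beside 0.04 for all genes tested and 0.002 for the 1994 bright ones. There were 9 values above 0 and 7 below. After centring 0 rose and 1 fell, beside 2.31% and 9.76% of all genes tested and 5.32% and 25.3% of the bright ones. The centred median was -0.12, with 6 values above 0 and 10 below. Cox4i1, the common isoform of the largest nuclear subunit and a regulatory one, read 18385 and 17464 in Suz12KO, against 14278 and 14373 in WT. It rose by 0.32 (SE 0.05, limma adjusted p = 0.00510). Cox6c read 21493 and 21062 in Suz12KO and 17295 and 15598 in WT, a rise of 0.37 (SE 0.06, adjusted p = 0.00447). Cox8a, the widely expressed isoform of subunit VIII, read 10405 and 10264 in Suz12KO and 8345 and 7919 in WT, a rise of 0.35 (SE 0.06, adjusted p = 0.00680). In all 3 the genotypes stood apart. Cox4i1 and Cox6c kept their calls whichever array was left out, and Cox8a did not pass with WT replicate 2 left out (adjusted p = 0.0546). After centring the 3 values were 0.16, 0.21 and 0.18, and limma adjusted p was 0.207, 0.110 and 0.178.

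Other widely expressed subunits of complex IV did not pass the test. Cox6a1 read 18274 and 18255 in Suz12KO and 18643 and 18616 in WT (-0.03, limma adjusted p = 0.784), and Cox7a2 read 21355 and 21635 in Suz12KO and 20613 and 20324 in WT (0.07, adjusted p = 0.428). Cox5a, which had a log2 fold change of 0.19 (adjusted p = 0.0649), did pass with its brightest probe set without an s, x or a suffix (0.33, adjusted p = 0.00701). Its neighbour in the complex Cox5b had 0.15 (adjusted p = 0.192), and Ndufa4, first described in complex I and now counted with complex IV, had -0.02 (adjusted p = 0.896). Cox6b1, a subunit facing the intermembrane space, read 11589 and 11694 in Suz12KO, against 12874 and 12372 in WT. Its log2 fold change was -0.12 (adjusted p = 0.253), and after centring it fell, by 0.28 (limma adjusted p = 0.0327), a call lost without Suz12KO replicate 1 or either WT array (adjusted p 0.0577, 0.249 and 0.201). Cox7a2l, a supercomplex assembly factor related to Cox7a2, had -0.02 on its brightest probe set, while its other 2 probe sets, also above background, had 0.45 and 0.23.

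The tissue-restricted isoforms of complex IV gave no call by limma as deposited (0 of 5 tested, also after centring, with 1 of the 5, Cox7a1, at an unadjusted p under 0.05). Cox7a1, the isoform of heart and skeletal muscle, read 574 and 573 in Suz12KO, against 324 and 369 in WT. The genotypes stood apart, with a log2 fold change of 0.71 (SE 0.25, adjusted p = 0.120), the largest value among the 90 genes, but it did not pass. Both Suz12KO arrays lay above both WT arrays in 29% of all genes tested. The testis isoform Cox6b2 read 1662 and 1559 in Suz12KO and 1401 and 1427 in WT (0.19, adjusted p = 0.388), and Cox8c, also of testis, read 1423 and 1085 in Suz12KO and 1187 and 1244 in WT (0.03, adjusted p = 0.935). Cox6a2 of muscle and the lung isoform Cox4i2 each lay within background in Suz12KO replicate 2 alone. Cox6a2 read 338 and 49.4 in Suz12KO and 293 and 478 in WT, and Cox4i2 read 310 and 73.5 in Suz12KO and 280 and 270 in WT. Without Suz12KO replicate 1 the Cox6a2 value was -2.58 (limma adjusted p = 0.0195), which rests on the low Suz12KO replicate 2, and without Suz12KO replicate 2 the Cox4i2 value was 0.16.

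Ndufa4l2, a paralog of Ndufa4 known as a hypoxia target, read 339 and 80.7 in Suz12KO and 63.2 and 51.0 in WT. It was too dim to be tested, and 1 of the 2 Suz12KO arrays lay above background. Cox7b2 and Cox8b lay within background in all arrays and have no measured change. The probe set listed for the ubiquitous subunit Cox7c read 123 and 168 in Suz12KO and 246 and 184 in WT, and that of Ndufb4 read 78.9 and 211 in Suz12KO and 91.4 and 158 in WT. Both lie at or near background.

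**Figure D2:**
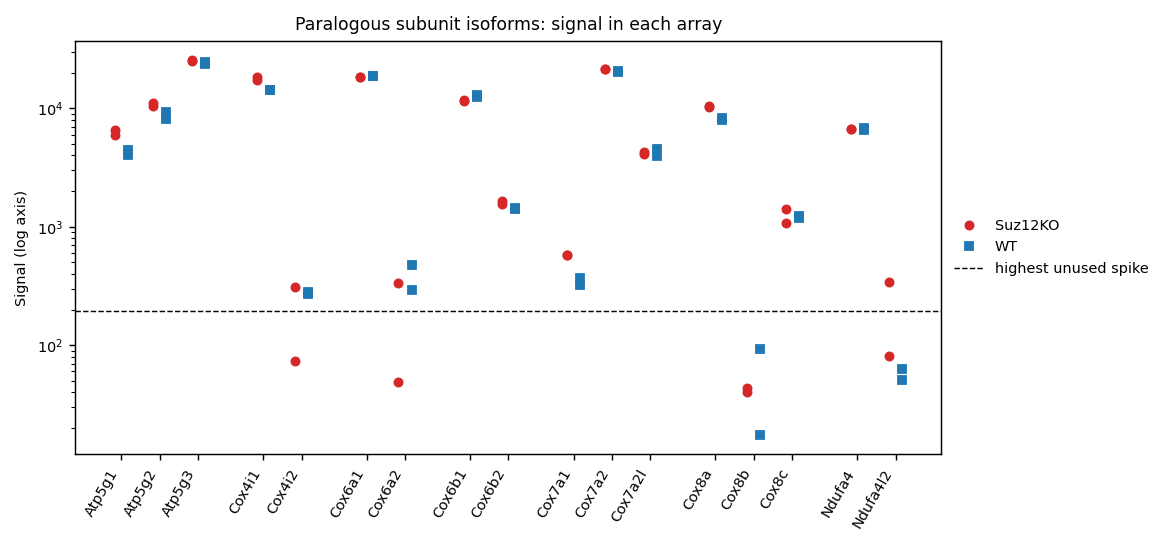
Signal in each array (vertical, log axis) of the c subunit genes and of paralogous complex IV isoforms, with Suz12KO as circles and WT as squares. Compare arrays within a gene, since probe sets of different genes differ in sensitivity. Atp5g1, Atp5g2, Cox4i1 and Cox8a, which passed the test as deposited, show the Suz12KO points above the WT points. So do Atp5g3, Cox6b2, Cox7a1, Cox7a2 and Ndufa4l2, which did not pass or were not tested, while Cox6a1 and Cox6b1 show them below. Cox8b stays under the dashed line at 195.

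Complex I had 5 rises among 33 genes tested (15.2%) and 0 falls, a median of 0.15, and no value beyond 0.5 in size. The share that rose was 4.48% over all genes tested and 14.1% over the 1994 with a mean signal of at least 2000. After centring 0 rose and 1 fell, beside 2.31% and 9.76% of all genes tested and 5.32% and 25.3% of the bright ones. The centred median was -0.02, with 13 values above 0 and 20 below. Of its core subunits, the ones shared with the bacterial enzyme, 6 were measured, all with a log2 fold change above 0 (median 0.22). Ndufv1, which carries the flavin that accepts electrons from NADH, read 3782 and 3580 in Suz12KO, against 2785 and 2964 in WT, a rise of 0.36 (SE 0.09, limma adjusted p = 0.0307). Its call was lost without Suz12KO replicate 1 or either WT array (adjusted p 0.120, 0.158 and 0.0742). The iron-sulfur subunits Ndufs7, Ndufs8, Ndufv2 and Ndufs1, and Ndufs3, a core subunit without a cluster, had log2 fold changes of 0.31, 0.26, 0.18, 0.13 and 0.03 and did not pass (limma adjusted p 0.0647 to 0.915). After centring 4 of the 6 core values were above 0.

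Accessory subunits surround the core, and 4 of the 27 tested rose (14.8%). Ndufa1, encoded on the X chromosome, read 9680 and 9822 in Suz12KO, against 7400 and 7384 in WT, a rise of 0.40 (SE 0.06, limma adjusted p = 0.00277). Ndufb9 read 7514 and 7716 in Suz12KO and 6191 and 5407 in WT (0.40, SE 0.08, adjusted p = 0.0123). Ndufa12 read 5392 and 5428 in Suz12KO and 3890 and 4194 in WT (0.42, SE 0.08, adjusted p = 0.00755). Ndufv3 read 5078 and 4866 in Suz12KO and 4060 and 4122 in WT (0.28, SE 0.07, adjusted p = 0.0434). None of the 4 overlapped between genotypes, and none passed after centring, with values of 0.23, 0.23, 0.25 and 0.11. When 1 array was left out, Ndufa1 kept its call each time, Ndufb9 lost it without WT replicate 2 (adjusted p = 0.0885), Ndufa12 without WT replicate 1 (adjusted p = 0.0520), and Ndufv3 without each of the 4 (adjusted p 0.0700 to 0.172). The other X-linked member, Ndufb11, had 0.15 (adjusted p = 0.273). Ndufa7, one of the brightest probe sets of the complex, had 0.17 (adjusted p = 0.0960).

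Lower values in complex I were led by Ndufa6, an accessory subunit of the LYR family. It read 2265 and 2275 in Suz12KO, against 2648 and 3160 in WT, with a log2 fold change of -0.35 (SE 0.11, limma adjusted p = 0.0785). After centring it fell, by 0.52 (adjusted p = 0.0178), a call lost without Suz12KO replicate 1 or WT replicate 2 (adjusted p 0.0593 and 0.195). Of the 1994 bright genes 25.3% fell after centring. Ndufb1, Ndufb7, Ndufa2, Ndufb10, Ndufa13 and Ndufs4 also lay below WT in both arrays, with log2 fold changes of -0.34 to -0.05, and did not pass. In complex I 7 of the 33 genes tested lay below in both arrays and 19 above. The shares were 23.9% and 29% over all genes tested, and 34.7% and 35.7% over the bright ones.

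**Figure D3:**
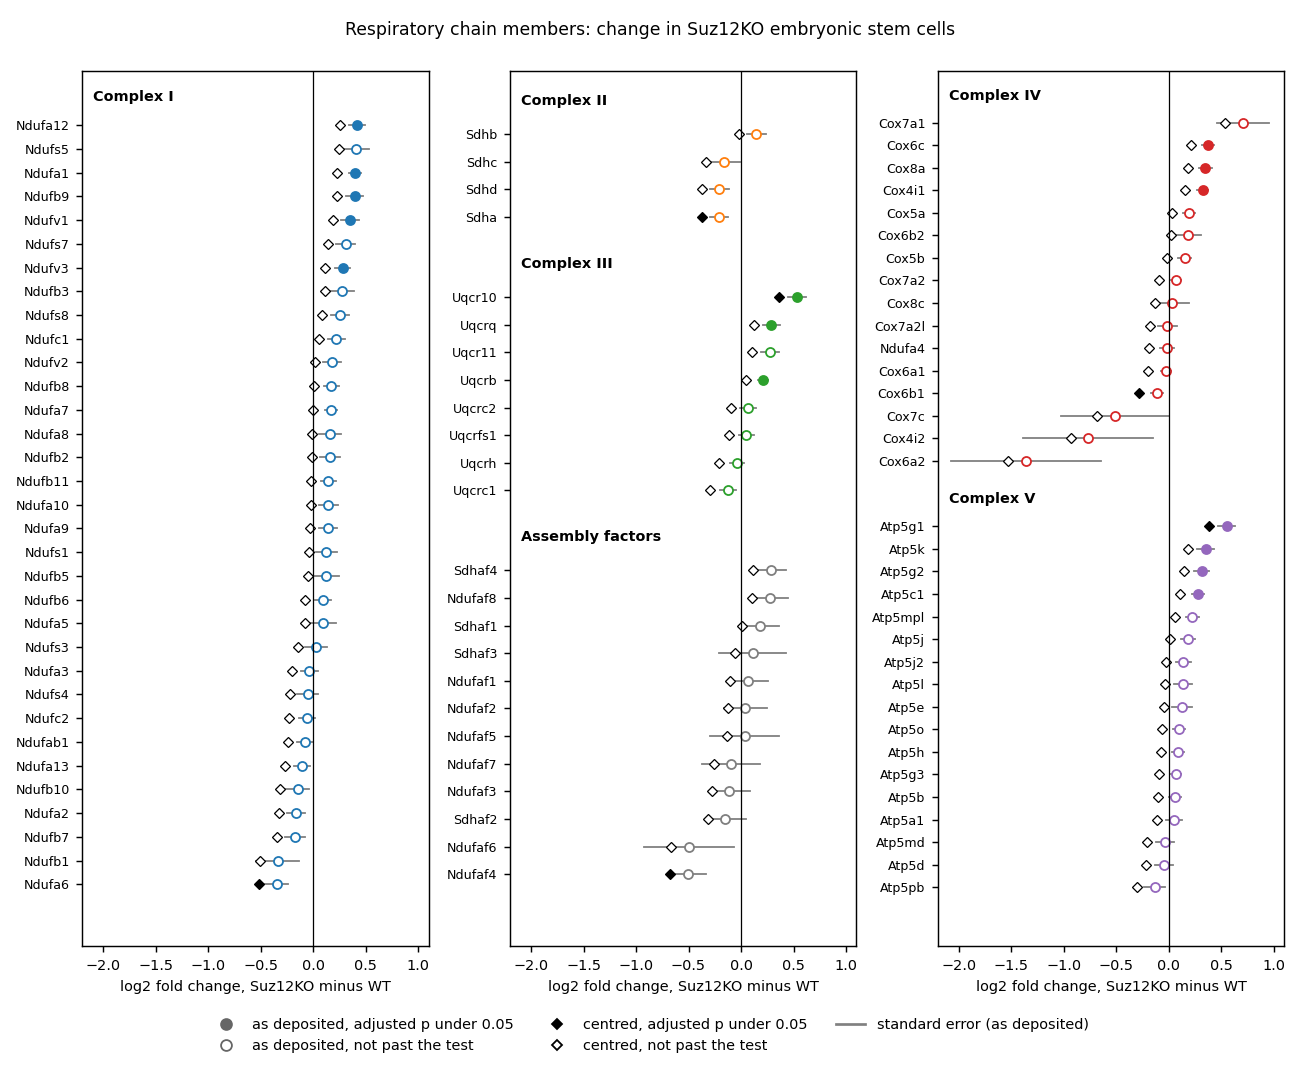
Log2 fold change (horizontal, Suz12KO minus WT) of the 90 genes tested, by complex. Circles are the arrays as deposited with their standard error, diamonds the same after centring, and filled symbols passed the test. All 15 filled circles lie right of 0, and of the 6 filled diamonds Atp5g1 and Uqcr10 lie right and Sdha, Cox6b1, Ndufa6 and Ndufaf4 left of 0. After centring 2.31% of all genes tested rose and 9.76% fell, and of the 1994 bright ones 5.32% and 25.3%.

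Complex II, which also serves the tricarboxylic acid cycle, had 0 calls among its 4 genes by limma as deposited (1, Sdha, had an unadjusted p under 0.05), and its median was -0.18. Sdha, the flavoprotein that oxidises succinate, read 4872 and 4238 in Suz12KO, against 5156 and 5342 in WT. Its log2 fold change was -0.21 (SE 0.09, limma adjusted p = 0.180). A further Sdha probe set above background had -0.26, with 1850 and 1778 in Suz12KO and 2174 and 2185 in WT. After centring Sdha fell, by 0.37 (limma adjusted p = 0.0215), and it lost that call without Suz12KO replicate 2 or either WT array (adjusted p 0.0522, 0.0557 and 0.171). Of the 1994 bright genes 25.3% fell after centring. The membrane anchor Sdhd lay lower in both arrays as well, at 3765 and 4492 in Suz12KO and 4812 and 4680 in WT (-0.21, adjusted p = 0.230). Over all genes tested 23.9% lay lower in both arrays, and 34.7% of the bright ones. For the iron-sulfur subunit Sdhb (0.15, adjusted p = 0.367) and the anchor Sdhc (-0.16, adjusted p = 0.592) the genotypes overlapped. Whether complex II differs from the other complexes was not tested.

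The 12 assembly factors gave 0 calls by limma as deposited (1, Ndufaf4, had an unadjusted p under 0.05), with a median of 0.04. Of the 12, 3 lay above WT in both arrays and 2 below, beside 29% and 23.9% of all genes tested. Ndufaf4 read 795 and 841 in Suz12KO, against 1004 and 1362 in WT, with a log2 fold change of -0.51 (SE 0.18, limma adjusted p = 0.118). After centring it fell, by 0.68 (adjusted p = 0.0397), but not without either Suz12KO array or WT replicate 2 (adjusted p 0.129, 0.0502 and 0.357). Over all genes tested 9.76% fell after centring. Sdhaf2, which helps to attach the flavin to Sdha, read 1625 and 1079 in Suz12KO and 1653 and 1310 in WT (-0.15), and Ndufaf8 read 1629 and 1161 in Suz12KO and 1156 and 1112 in WT (0.28). Neither passed.

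**Figure D4:**
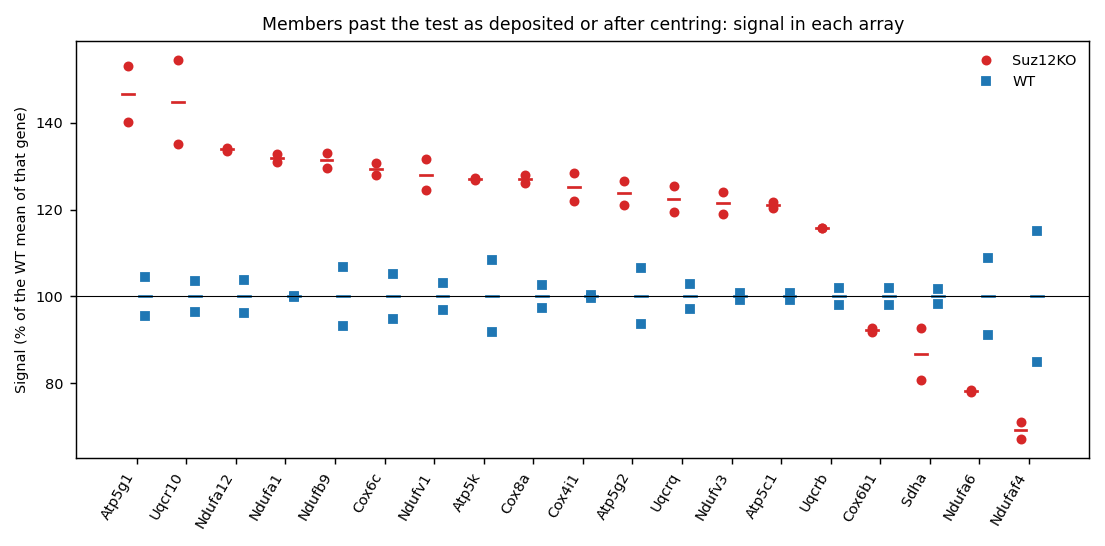
Signal in each array as a percentage of the WT mean of the same gene (vertical) for the 15 genes that passed the test as deposited and the 4 that fell only after centring. Circles are Suz12KO arrays, squares WT arrays and bars their means. The genotypes do not overlap in any of the 19 genes shown, but these were picked by the test on the same arrays, so this adds no support. Over all genes tested, both Suz12KO arrays lay above both WT arrays in 29% and below them in 23.9%. After centring 9.76% of all genes tested fell, and 25.3% of the 1994 bright ones.

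Probe sets of the same gene differed in direction for some genes. Of the 94 genes 53 had more than 1 probe set, and 44 had at least 2 above the highest unused spike in every array. Their log2 fold changes had the same sign in 28 of the 44 and different signs in 16, and the median gap between the highest and the lowest was 0.19. Ndufa12 is a case where the call rests on the probe set chosen: its 3 bright probe sets had 0.42, 0.21 and -0.17. The Ndufs8 probe sets ran from -0.39 to 0.38, those of Ndufaf8 from -0.26 to 0.28 and those of Atp5a1 from -0.32 to 0.05. Atp5j2, the f subunit of ATP synthase, had 0.14 and 0.04 on its bright probe sets and 0.97 on a dim one. Probe sets lay close together for Ndufs7 (0.31 and 0.36), Cox8a (0.35 and 0.31) and Cox6b1 (-0.12 and -0.11). Of the 15 genes that rose, 10 were represented by a probe set with an s, x or a suffix, a kind that can detect related transcripts, as were 43 of all 94.

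Other mitochondrial genes were mixed. Over all genes tested 4.48% rose and 5.5% fell. Of 76 mitochondrial ribosomal protein genes 4 rose (5.26%, near that share) and 0 fell (median 0.08). The rises were led by Mrps24 (0.76, limma adjusted p = 0.00983), Mrps28 (0.63) and Mrpl15 (0.46). Of 16 genes of the tricarboxylic acid cycle and pyruvate dehydrogenase 4 rose and 1 fell (25% and 6.25%, median -0.02). This list and the next are bright, with median signals of 2944 and 7508, and of the 1994 bright genes 14.1% rose and 15% fell. Idh3g, a subunit of isocitrate dehydrogenase, rose by 0.80 (adjusted p = 0.000217), Suclg2 by 0.61 and Mdh2 by 0.30, and the citrate synthase gene Cs fell by 0.28 (adjusted p = 0.0453). Among 20 carriers, pores and import genes 3 rose and 1 fell (15% and 5%, the rises near the 14.1% of bright genes). The ADP/ATP carriers, which exchange the product of complex V for its substrate, moved apart: Slc25a5 read 28287 and 30011 in Suz12KO and 18342 and 18212 in WT, a rise of 0.67 (limma adjusted p = 5.78e-05), and Slc25a4 read 8846 and 8884 in Suz12KO and 11467 and 11020 in WT and fell by 0.34 (adjusted p = 0.00571). Vdac1, the outer membrane pore, rose by 0.36 and Phb2 by 0.26.

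Cytochrome c itself (Cycs), the carrier between complexes III and IV, fell by 0.25 (limma adjusted p = 0.0346). Cyc1, the cytochrome c1 subunit of complex III, which the symbol rule leaves out, had 0.20 (limma adjusted p = 0.0611). The ATP synthase inhibitor Atpif1 had -0.01. Of 31 tested assembly and insertion factors outside the symbol rule 1 rose and 2 fell (3.23% and 6.45%, near the 4.48% and 5.5% of all genes tested). The copper chaperone Cox17 rose by 0.52 (limma adjusted p = 0.00273), and Oxa1l, which inserts proteins into the inner membrane, and Sco2, a further copper chaperone, fell by 0.89 and 0.41 (adjusted p 0.0348 and 0.0441). Among 15 tested regulators and factors of mitochondrial DNA 1 passed (6.67%). It was Polg, the polymerase of that DNA, with a rise of 0.60 (limma adjusted p = 0.00666). Nrf1 had 0.17, Gabpa 0.10 and Tfam 0.21. After centring 1 of the 76 ribosomal protein genes rose and 3 fell (median -0.09), beside 2.31% and 9.76% of all genes tested. The centred counts were 1 higher and 2 lower in the tricarboxylic acid cycle list, 1 higher and 2 lower among carriers, pores and import genes, and 1 higher and 3 lower among the assembly factors outside the rule. Of the calls named above, those of Idh3g, Slc25a5, Slc25a4, Cox17, Polg, Mrps24, Cs, Cycs, Oxa1l and Sco2 still passed after centring, and those of Vdac1 (0.19), Phb2 (0.09), Mdh2 (0.13), Suclg2 (0.44), Mrps28 (0.47) and Mrpl15 (0.29) did not. Calls were lost when 1 array was left out for Cs (each array), Cycs (both Suz12KO arrays and WT replicate 2), Sco2 (both Suz12KO arrays and WT replicate 1), Oxa1l and Phb2 (Suz12KO replicate 1 and both WT arrays), Mdh2 (Suz12KO replicate 1 and WT replicate 1), Suclg2 (Suz12KO replicate 1 and WT replicate 2) and Mrps28 (Suz12KO replicate 2 and WT replicate 2), with adjusted p of 0.0542 to 0.282. The Oxa1l probe set with no such suffix had 0.11.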

How the data were processed

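Values were 1 table of probe set signals from 4 arrays. Per the file headers, columns are the samples. Judged from the values, the deposited signals are intensity on a linear scale. Their 2% trimmed mean, computed here, is 500.003 in each array, so they were already scaled to each other, while the software and steps behind them are not named there. Probe sets were named from GEO's platform annotation: 34945 have 1 symbol and 932 several, which were left out. The brightest probe set stood for each of 18193 genes, and the 12735 above the 30th percentile of mean level were tested with limma 3.58.1 (R 4.3.3; lmFit, eBayes with trend) on log2(signal + 16), two-sided, Benjamini-Hochberg over all genes. Tables and plots used Python 3.11.15, pandas 2.3.3 and matplotlib 3.10.9. On simulated data with 200 changed genes among the 12735 of this comparison, 32% of 2-fold and 63% of 4-fold changes were recovered, and 6 of 101 calls were false. Those genes were drawn from all levels and changed at least 2-fold. The rates therefore do not describe the smaller changes called here in bright genes. The number of arrays limits precision.

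The symbol rule, gene lists and named genes were chosen with earlier results of these data known. Named were the 3 brightest genes per complex, all that passed as deposited or centred, paralogous isoforms, up to 5 with probe sets of differing sign, and up to 3 changes per direction from each other list. Others named in the text, the limit of 2000 for bright genes and the background of 195 were chosen after the values were seen. Alternatives were centring, quantile normalization, pseudocounts of 1 and 64, other filters, other choices of probe set, other variance models, a replicate block and leaving out each array. Scaling on control RNA, and centring with an array left out, were added after seeing the data.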

Additional observations from a re-analysis of the deposited data

How the results depend on the processing

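The count of genes that rose (15) was 17 with quantile normalization, 15 with pseudocounts of 1 or 64 and with robust estimation, 11 with no filter, 19 with a filter at the 50th percentile and 11 with scaling on control RNA. It was 2 after centring, 5 with the mean of probe sets, 7 with probe sets lacking an s, x or a suffix and 6 to 11 without 1 array. It was 0 in limma with no trend, where 6 of the 90 were higher at an unadjusted p under 0.05 and the smallest adjusted p of all genes was 0.0999. The count of genes that fell (0) was 4 after centring, 2 with the replicate block and 0 to 1 without 1 array. The replicate block gave 24 that rose. Deviations of same-numbered arrays correlated at 0.0154 across genes, a value that cannot show whether those arrays were prepared together. The labels give only the replicate number. The median of 0.10 was -0.064 centred, 0.12 with quantile normalization, 0.12 at the 50th percentile, 0.11 with the mean of probe sets, 0.093 without suffixed probe sets, 0.065 on control RNA and 0.086 to 0.13 without 1 array. Over all 90 genes 28 signs turned after centring, as a shift of every value by the same amount must do near 0. Among the genes named by rule these were Atp5a1 (-0.12), Atp5b (-0.11), Atp5g3 (-0.098), Cox5b (-0.017), Cox7a2 (-0.097), Cox8c (-0.14) and Sdhb (-0.021). With quantile normalization 8 turned, among them Atp5a1 (-0.026), Atp5b (-0.018), Atp5g3 (-0.010), Cox7a2 (-0.044), Cox7a2l (0.024) and Ndufa4 (0.013), and with the mean of probe sets 12 of 89, among them Atp5a1 (-0.077), Atp5c1 (-0.33) and Cox7a2l (0.22). Without suffixed probe sets 6 of 69 turned, among them Atp5c1 (-0.94), Ndufaf8 (-0.26), Ndufs8 (-0.12) and Uqcrb (-0.12), as did Oxa1l (0.11) outside the 90. On control RNA 3 turned, Cox8c (-0.0068), Ndufs3 and Ndufaf5. With each array left out in turn 20 of the 90 turned at least once, among them Atp5a1 (-0.039 to 0.14), Atp5b (-0.0068 to 0.13), Cox4i2 (-1.70 to 0.16), Cox7a2l (-0.12 to 0.088), Cox8c (-0.16 to 0.23), Ndufa4 (-0.048 to 0.0077) and Sdhaf2 (-0.44 to 0.14). Where an array was left out the lone array was assumed to vary like the others, and the causes were not tested. Signals near background limit Cox4i2, Cox6a2 and Cox7c. They also limit the second Atp5c1 probe set, from which the Atp5c1 value of -0.94 comes and which enters its averaged value of -0.33.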
